A study of Mus musculus with 47 samples.

Results

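The neurofilament and microtubule-associated genes described here are 10 genes of the axonal and dendritic cytoskeleton, Nefl, Nefm, Nefh, Ina, Mapt, Map2, Map1a, Map1b, Stmn2 and Tubb3. They were chosen by gene symbol, and all 10 were found by their Ensembl identifiers among the 33139 genes with a row for brainstem and the 31751 with a row for hippocampus. RNA of male C57BL/6 mice was sequenced at 12 months of age, in 23 libraries of brainstem, taken from its posterior part (the medulla), and 24 of whole hippocampus. Wild-type mice (WT) and mice homozygous for the transgene h[A30P]αSYN (TG) received a standard diet (SD) or a high-fat diet (HFD) from 5 weeks of age. The transgene was driven by the Thy1 promoter, which is active in neurons of the central nervous system, and the WT mice came from a parallel colony, so genotype and colony cannot be told apart. The groups WT_SD, WT_HFD, TG_SD and TG_HFD held 6 libraries each in both regions, apart from WT_SD of brainstem with 5, and within a region each library came from a separate mouse.

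Neurofilaments are the intermediate filaments of mature axons and set the calibre of thick, myelinated fibres. They are assembled from the light, medium and heavy chains encoded by Nefl, Nefm and Nefh together with alpha-internexin, encoded by Ina. Microtubules, built of tubulins such as the neuronal beta-tubulin encoded by Tubb3, are stabilized and spaced by the associated proteins tau (Mapt), MAP2, MAP1A and MAP1B. Tau is found mostly in axons and MAP2 in dendrites and cell bodies. Stathmin-2, encoded by Stmn2, binds tubulin dimers and is needed for the upkeep of axons.

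The total count per library was 10020784 to 15078812 in brainstem and 11945971 to 17328447 in hippocampus, and the smallest count of any of the 10 genes in any library was 454. The labelled tissues carried their markers: the summed level of 8 markers of hippocampal excitatory neurons was 1250 to 1480 CPM (counts scaled to library size) in hippocampus and 143 to 197 CPM in brainstem, and that of 7 hindbrain position markers was 0 to 0.15 CPM in hippocampus, where 5 of them had no row, and 20.2 to 130 CPM in brainstem. The summed level of 6 choroid plexus markers ran from 12.4 to 2960 CPM over the brainstem libraries.

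Sequence around the start of transcription is shown for Ina, Tubb3 and Map2, since these called genes lay on both sides of the comparison between the regions, Ina and Tubb3 lower and Map2 higher in hippocampus. RefSeq promoters of the build GRCm38.p6, reaching from 250 bases before to 50 after the start site, were at hand for 5 of the 10 genes, the other two being Map1a and Map1b, and not for Nefl, Nefm, Nefh, Mapt and Stmn2. The windows are chr19:47014431-47014730 on the plus strand for Ina, chr8:123411303-123411602 on the plus strand for Tubb3 and chr1:66175079-66175378 on the plus strand for Map2. Capitals mark the GC box GGGCGG, the letters bound by Sp1-type factors, and the TATA box TATAAA, both searched on either strand.
Ina: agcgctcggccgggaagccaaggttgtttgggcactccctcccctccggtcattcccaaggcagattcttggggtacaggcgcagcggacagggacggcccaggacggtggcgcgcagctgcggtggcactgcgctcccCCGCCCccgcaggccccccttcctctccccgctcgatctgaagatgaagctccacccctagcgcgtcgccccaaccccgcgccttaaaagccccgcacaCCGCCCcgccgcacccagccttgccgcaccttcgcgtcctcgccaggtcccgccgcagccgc
Tubb3: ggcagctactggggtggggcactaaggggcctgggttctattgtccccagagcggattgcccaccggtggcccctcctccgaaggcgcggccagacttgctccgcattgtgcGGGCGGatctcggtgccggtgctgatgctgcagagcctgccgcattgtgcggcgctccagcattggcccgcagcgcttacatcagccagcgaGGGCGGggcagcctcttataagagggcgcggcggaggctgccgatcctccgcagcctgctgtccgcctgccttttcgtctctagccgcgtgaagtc
Map2: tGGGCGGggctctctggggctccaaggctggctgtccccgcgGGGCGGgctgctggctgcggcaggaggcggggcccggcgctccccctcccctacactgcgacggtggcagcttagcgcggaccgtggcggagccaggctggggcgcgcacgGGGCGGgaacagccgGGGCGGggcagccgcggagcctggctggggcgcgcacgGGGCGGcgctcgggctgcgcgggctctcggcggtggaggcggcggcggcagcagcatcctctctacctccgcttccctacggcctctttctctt
The GC box occurred 2 times in the window of Ina, 2 times in that of Tubb3 and 5 times in that of Map2, and TATAAA was not found in any of them. Among 32544 RefSeq mouse promoters of the same length, 35.9% held GGGCGG and 13.6% held TATAAA. The windows were rich in G and C, at 71.7% for Ina, 67.3% for Tubb3 and 77.7% for Map2, where the median of all promoters was 53%. Of these windows that of Map2 held the most GC boxes and the highest share of G and C. The windows of Map1a and Map1b, which were not called between the regions, held 4 and 2 GC boxes at 65.7% G and C each, and that of Map1b 1 TATAAA. A relation of these letters to the region difference was not tested.

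To set the genes in order, levels were expressed as CPM per kilobase of the longest annotated transcript. In brainstem, Nefl stood first at 315 ± 17.4 CPM per kilobase (mean ± SD, n = 23), followed by Nefm at 236 ± 36.7, Tubb3 at 230 ± 33.7 and Nefh at 159 ± 22.7. Stmn2 (134 ± 5.99) and Map2 (134 ± 11.1) came next, then Map1b (88.6 ± 16.3), Ina (88.5 ± 10), Map1a (87.8 ± 11.5) and Mapt (64.3 ± 4.16). The order was not kept in all libraries for several neighbours: Nefh exceeded Stmn2 in 20 of 23, Nefm exceeded Tubb3 in 14 of 23, and Stmn2 exceeded Map2, Map1b exceeded Ina and Ina exceeded Map1a in 10 of 23 each. Nefl exceeded Nefm, and Map1a exceeded Mapt, in 23 of 23 libraries.

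In hippocampus the order was another. Map2 stood first at 193 ± 12.1 CPM per kilobase (mean ± SD, n = 24), with every library above every library of the second gene, Nefl, at 105 ± 5.07. Map1a (101 ± 9.74), Tubb3 (99.7 ± 9), Stmn2 (88.9 ± 4.35), Map1b (75.4 ± 10.4) and Mapt (72.6 ± 3.31) followed, and of these neighbours Nefl exceeded Map1a in 14 of 24 libraries, Map1a exceeded Tubb3 in 11 and Map1b exceeded Mapt in 13. The other filament genes closed the order without overlap between neighbours, Ina at 45.9 ± 3.26, Nefm at 33.7 ± 3.12 and Nefh at 9.96 ± 0.862. Dividing by the length of all annotated exons instead moved Map2 from the first to the 4th place in hippocampus and Nefm from the 2nd to the 4th in brainstem. Their annotated exons sum to 16449 and 5782 bases, against 6258 and 3680 bases in the longest transcript.

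**Figure D1:**
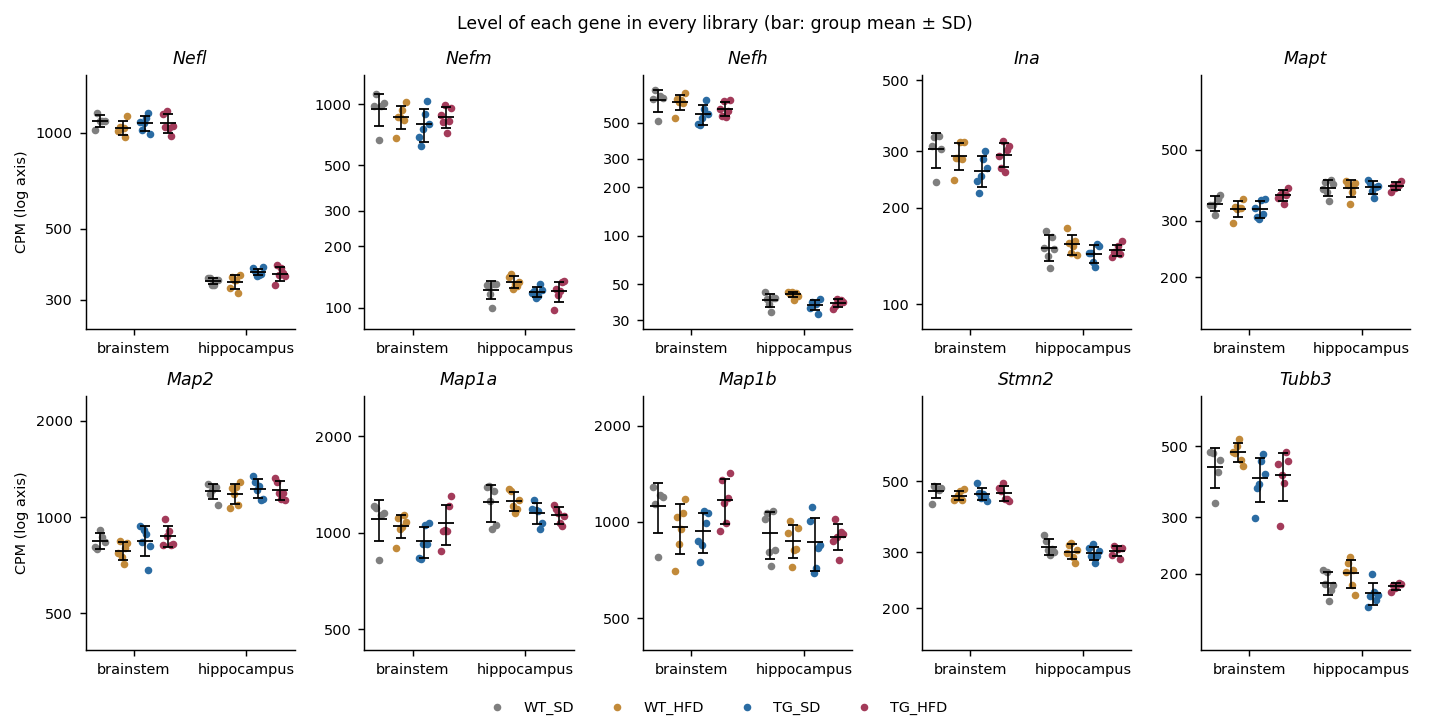
Level of each of the 10 genes in every library (points, CPM on a log axis) by group and region, with the group mean and SD as bars. Nefh lay between 486 and 797 CPM in brainstem and between 33 and 45.2 CPM in hippocampus, while the groups compared within a region overlapped, apart from WT_SD and TG_SD for Nefl in hippocampus.

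All 4 neurofilament subunit genes were lower in hippocampus than in brainstem, and the difference grew from Nefl to Nefm to Nefh. Nefh, the heavy chain, ranged from 486 over a median of 666 to 797 CPM in the 23 brainstem libraries and from 33 over 40.3 to 45.2 CPM in the 24 hippocampal ones. Its log2 fold change of hippocampus over brainstem was −4.00 ± 0.0468 (SE), a 16-fold difference, with an adjusted p of 1.12e-50 by edgeR's quasi-likelihood test over 13458 genes, and it was the 48th lowest value of all. Nefm, the medium chain, ranged from 625 over 870 to 1120 CPM in brainstem and from 97.7 over 125 to 146 CPM in hippocampus, a log2 fold change of −2.81 ± 0.0537 and an adjusted p of 1.1e-41. Its lowest brainstem library thus stood far above its highest hippocampal library.

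Nefl, the light chain, ranged from 971 over 1050 to 1170 CPM in brainstem and from 315 over 355 to 385 CPM in hippocampus (log2 fold change −1.59 ± 0.023, adjusted p of 7.78e-47). Ina had the smallest difference of the subunit genes, with 222 to 335 CPM (median 287) against 130 to 173 CPM (median 148) and a log2 fold change of −0.95 ± 0.0372 (adjusted p of 2.72e-28). For each of the 4 genes the libraries of the regions did not overlap. Over all 13458 genes tested, 31% were called lower in hippocampus, which required a log2 fold change of 0.3 or more in size together with an adjusted p no higher than 0.05, while 29.2% were called higher and 35% had regions that did not overlap. The median log2 fold change was −2.2 over the 4 subunit genes and −0.02 over all genes. Both regions were taken from the mice of each group, but the labels do not tie a brainstem library to a hippocampal one, so the fit had no term for the mouse and its errors and p-values treat the 47 libraries as independent. Since the tissue was taken in bulk, fewer cells of a type and less RNA per cell cannot be told apart.

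The microtubule-associated protein genes differed far less between the regions, and only Map2 was called. Map2 was the one gene of the 10 called higher in hippocampus, with 1070 to 1340 CPM (median 1220) against 686 to 985 CPM (median 832) in brainstem, a log2 fold change of 0.53 ± 0.031 and an adjusted p of 3.44e-21. Mapt had 337 to 401 CPM in hippocampus and 294 to 379 CPM in brainstem (log2 fold change 0.18 ± 0.0236, adjusted p of 3.41e-09), and Map1a 1030 to 1400 against 823 to 1300 CPM (0.20 ± 0.0438, adjusted p of 4.06e-05). Map1b had 694 to 1110 CPM in hippocampus and 702 to 1420 CPM in brainstem (−0.23 ± 0.0625, adjusted p of 0.000782). These 3 passed the adjusted p but not the fold threshold, and their regions overlapped. With a correction for transcript length the log2 fold change of Map1a was −0.06 (adjusted p of 0.181), and that of Map1b ran from −0.49 to −0.18 over 8 alternative settings, with a call in 1 of them.

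Stmn2 and Tubb3 were both lower in hippocampus. Stmn2 had 277 to 340 CPM (median 305) in hippocampus and 424 to 494 CPM (median 457) in brainstem, a log2 fold change of −0.59 ± 0.0225 (adjusted p of 6.59e-29). Tubb3 had 158 to 225 CPM (median 185) and 283 to 526 CPM (median 449), a log2 fold change of −1.20 ± 0.0469 (adjusted p of 2.21e-28). Neither gene overlapped between the regions. Thus 7 of the 10 genes were called, 6 of them lower and 1 higher in hippocampus, beside 31% of all genes called lower and 29.2% called higher.

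**Figure D2:**
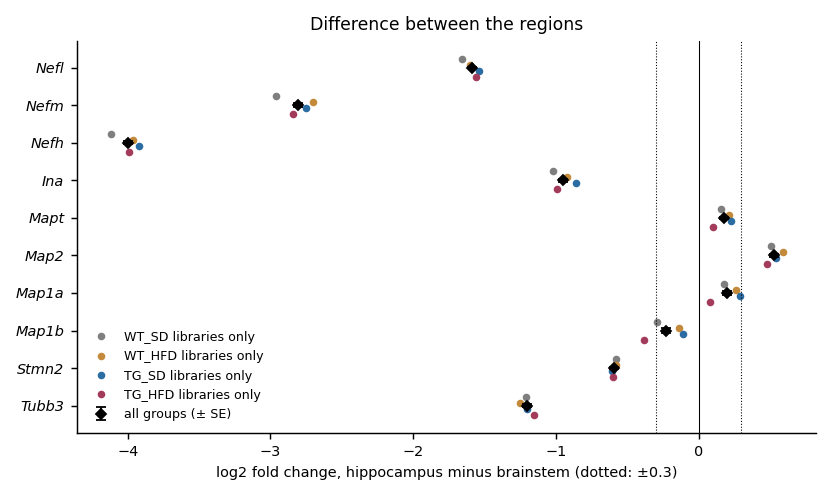
Log2 fold change of hippocampus over brainstem for each gene over all groups (diamonds, ± SE) and within each group (circles), with dotted lines at ±0.3. The neurofilament subunit genes, Stmn2 and Tubb3 lie left of −0.3 in every group, and Map2 lies right of 0.3.

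Each of the 4 groups gave the same direction for the called genes. The region difference of Nefh was −4.12 in WT_SD, −3.96 in WT_HFD, −3.92 in TG_SD and −3.99 in TG_HFD, and that of Nefm −2.96, −2.7, −2.75 and −2.84 in the same order. Map2 ran from 0.48 in TG_HFD to 0.59 in WT_HFD. Within single groups, Map1a passed the adjusted p in WT_HFD and TG_SD, and Map1b in WT_SD and TG_HFD.

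The make-up of the neurofilament transcripts differed between the regions. Per kilobase, the 4 subunit genes summed to 798 ± 77.5 CPM in brainstem (SD, n = 23) and to 194 ± 7.71 CPM in hippocampus (n = 24). Nefh made up 19.8% ± 1.27 of that sum in brainstem and 5.13% ± 0.415 in hippocampus, and Nefm 29.4% ± 1.92 and 17.3% ± 1.17. The shares of Nefl and Ina were larger in hippocampus, at 53.9% ± 2.25 against 39.7% ± 3.15 and at 23.6% ± 1.29 against 11.1% ± 0.505. For none of the 4 shares did the regions overlap, with 4.17% to 5.92% for Nefh in hippocampus and 17.5% to 21.8% in brainstem as an example.

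Ratios of counts between members gave the same picture without a length. The count of Nefh was 0.595 ± 0.0793 of that of Nefl in brainstem and 0.113 ± 0.0128 in hippocampus, and that of Nefm 0.816 ± 0.11 and 0.351 ± 0.0372. Map2 exceeded Mapt 2.48-fold (SD 0.237) in brainstem and 3.18-fold (SD 0.265) in hippocampus, with overlap between the regions. Map1b and Map1a had a ratio of 1 ± 0.114 in brainstem and 0.745 ± 0.0842 in hippocampus, and these too overlapped, between 0.781 and 0.887.

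Other genes of the cytoskeleton, listed by family, moved in both directions between the regions, and their counts are given as a description beside the 31% of all genes called lower and the 29.2% called higher in hippocampus. Of 5 other intermediate filament genes 3 were called lower in hippocampus and none higher, with a median log2 fold change of −0.35: Prph, which encodes peripherin of neurons with peripheral axons, at −5.42 ± 0.109, the progenitor gene Nes at −0.74 ± 0.0584, and Synm, encoding synemin, at −0.35 ± 0.0309. All 3 other stathmin genes were lower, with a median of −0.4, Stmn1 at −0.73 and Stmn3 and Stmn4 at −0.4 each. Of 12 other tubulin genes 6 were lower and 2 higher, with a median of −0.21. The beta-tubulin genes diverged, with Tubb4a at −0.82 and Tubb4b at −0.78 but Tubb2a at 0.93 and Tubb2b at 1.03.

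Regulators of microtubules were called in both directions as well. Of 23 other microtubule-binding proteins 9 were higher and 6 lower (median 0.12), led by Tppp3 at −2.84, Crmp1 at 1.86 and Map1s at 1.4. Of 18 motor genes of axonal transport 5 were higher and 4 lower (median −0.04), with Kif5b, a kinesin heavy chain, at −1.22. Of 14 cytoskeletal kinase genes 9 were higher and 1 lower (median 0.51), with the Cdk5 activators Cdk5r1 at 1.81 and Cdk5r2 at 1.23 and the tau-tubulin kinase gene Ttbk2 at −1.54. Of 13 tubulin-modifying enzymes 3 were higher and 4 lower (median −0.07), with Vash2, a tubulin carboxypeptidase, at −2.39. Of 9 spectrin, ankyrin and adducin genes 6 were higher and none lower (median 0.59). The all-gene median was −0.02, and the motor genes, the tubulin-modifying enzymes and the other microtubule-binding proteins lay near the shares of all genes called in each direction.

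Marker levels of cell types moved with the region as well. The summed level of 10 pan-neuronal markers was 5490 to 6290 CPM in brainstem and 6160 to 7200 CPM in hippocampus, and 4 of the 10 were called higher and 4 lower in hippocampus. That of 6 motor neuron markers was 131 to 203 CPM in brainstem and 1.31 to 3.09 CPM in hippocampus, and all 5 tested were lower. That of 8 oligodendrocyte markers was 12500 to 21000 CPM in brainstem and 3050 to 4740 CPM in hippocampus, with 8 of 8 lower. The part of cell composition in the region differences of the 10 genes was not tested.

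Within brainstem, the question was whether the transgene or the diet moved these genes, and none of the 10 was called in any comparison of groups. The nearest was Nefh, which was lower in TG than in WT on both diets with an adjusted p under 0.05, but by less than the fold threshold of 0.3. On SD, Nefh had 698, 797, 517, 738 and 713 CPM in the 5 WT_SD libraries and 486 to 697 CPM with a median of 552 in TG_SD. Of the 5 WT_SD libraries 1, replicate 6, lay among the low TG_SD values, and the groups overlapped. The log2 fold change was −0.21 ± 0.0365 (SE; 95% interval −0.29 to −0.14), with an adjusted p of 0.00319 by edgeR's quasi-likelihood test over 13340 genes.

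On HFD, Nefh had 540 to 764 CPM with a median of 683 in WT_HFD and 546 to 692 CPM with a median of 603 in TG_HFD. Its log2 fold change was −0.28 ± 0.0442 (95% interval −0.37 to −0.19), with an adjusted p of 0.00262, and it had the 4th smallest p of all genes. At an adjusted p of at most 0.05, 0.0825% of genes were lower in TG on SD and 0.0075% on HFD, where Nefh was the single gene. With the fold threshold, the calls in either direction were 0.135% of genes on SD and 0.045% on HFD.

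Nefh passed the adjusted p in 7 of 16 alternative settings on either diet, all with surrogate variables in the model. Their number was 4, which the permutation method of sva returned for the reported fit, or was estimated anew by that method. No setting with the number fixed at 3 or fewer passed. Surrogate variables are patterns shared by many genes that the groups do not account for. Without them the log2 fold change was −0.29 ± 0.103 (adjusted p of 0.788) on SD and −0.13 ± 0.0988 (adjusted p of 0.458) on HFD, and with 3 it was −0.17 (adjusted p of 0.483) and −0.14 (adjusted p of 0.798). A correction for GC content without surrogate variables gave −0.20 (adjusted p of 0.787) on SD and 0.05 (adjusted p of 0.841) on HFD. On HFD the adjusted p also rose to 0.549 without WT_HFD replicate 8 (log2 fold change −0.21) and to 0.0854 without TG_HFD replicate 7 (−0.22), while leaving out TG_HFD replicate 1 or WT_SD replicate 4 moved the value to −0.33, past the fold threshold. On SD the adjusted p stayed at 0.0304 or below without any single library.

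**Figure D3:**
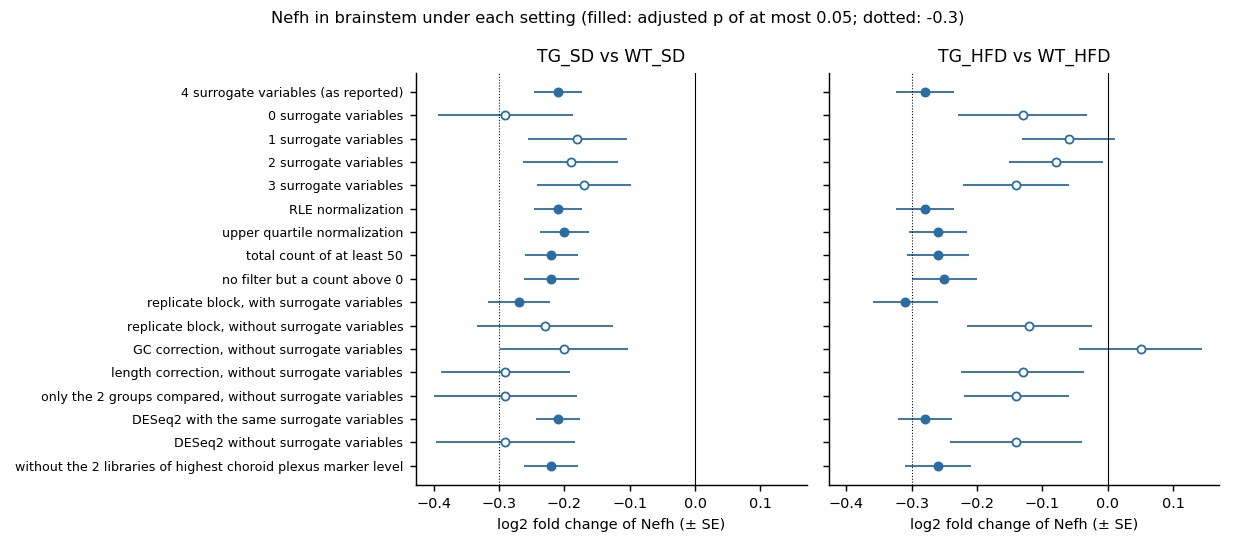
Log2 fold change of Nefh in brainstem, TG over WT, on SD (left) and HFD (right) under each setting of the model, with SE as bars, filled circles for an adjusted p of at most 0.05 and a dotted line at −0.3. The filled settings lie between −0.31 and −0.20 and had 4 surrogate variables or a number estimated anew, and the open ones had the number fixed at 3 or fewer.

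The other filament genes of brainstem had values in the same direction that did not pass the test, although Nefm and Ina lay close to it on SD. Nefm had 984, 1120, 667, 983 and 1010 CPM in the 5 WT_SD libraries and 625 to 1040 CPM (median 779) in TG_SD, with a log2 fold change of −0.17 ± 0.039 and an adjusted p of 0.0589. On HFD it had 685 to 1030 CPM (median 869) in WT and 718 to 987 CPM (median 858) in TG, with −0.21 ± 0.0473 and an adjusted p of 0.142. The medians of WT_HFD and TG_HFD were close, and 4 of 16 alternative settings on HFD gave a value of the other sign. Ina had −0.16 ± 0.0361 (adjusted p of 0.0589) on SD and −0.10 ± 0.0437 (adjusted p of 0.896) on HFD. DESeq2 with the same surrogate variables put Nefm (adjusted p of 0.000728 on SD and 0.00221 on HFD), Ina (0.00354 on SD) and Map1b (0.000965 on SD) under 0.05 as well, at the same sizes and short of the fold threshold. RLE normalization put Nefm on SD under it too (−0.17, adjusted p of 0.0409). Leaving out 1 of the 23 libraries did so for Nefm in 6 fits on SD and 4 on HFD, for Ina in 4 on SD and for Map1b in 1 on SD. Without surrogate variables the log2 fold change of Nefm was −0.25 ± 0.123 on SD and 0.00 ± 0.118 on HFD, with adjusted p of 0.788 and 0.996.

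Nefl had 1020, 1150, 1090, 1090 and 1090 CPM in WT_SD, 989 to 1150 CPM in TG_SD and a log2 fold change of −0.04 ± 0.0334 (95% interval −0.11 to 0.02, adjusted p of 0.688), and −0.05 ± 0.0404 (95% interval −0.13 to 0.03, adjusted p of 0.97) on HFD. Its 95% intervals did not reach a change of 0.3 in size.

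Among the microtubule genes of brainstem, Map1b had −0.14 ± 0.0335 on SD (adjusted p of 0.0853) and 0.00 ± 0.0412 on HFD (adjusted p of 0.999), and Map1a −0.09 ± 0.0375 (adjusted p of 0.399) and −0.03 ± 0.0462 (adjusted p of 0.989). Mapt, Map2, Stmn2 and Tubb3 lay between −0.07 and 0.06 on both diets, with adjusted p values of 0.471 or above. In this fit with 4 surrogate variables the 95% intervals of these 4 genes reached from −0.13 to 0.15 at the most, so changes of 0.3 were outside them. At an unadjusted p under 0.05 there were 6 of the 10 genes on SD and 3 on HFD, beside 10.4% and 5.37% of all genes tested. Without surrogate variables the errors were larger. On HFD, Tubb3 then had −0.23 ± 0.11, Map2 0.15 ± 0.0664, Mapt 0.14 ± 0.0514 and Stmn2 0.03 ± 0.0475, with adjusted p of 0.155 or above. Map1b had 0.28 ± 0.127 on HFD in that fit. On SD it had −0.26 ± 0.133, Map1a −0.23 ± 0.101 and Tubb3 −0.12 ± 0.116, and these adjusted p were 0.221 or above. A change of 0.3 is thus not excluded without surrogate variables for Map1b and Tubb3 on either diet, or for Map1a on SD.

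**Figure D4:**
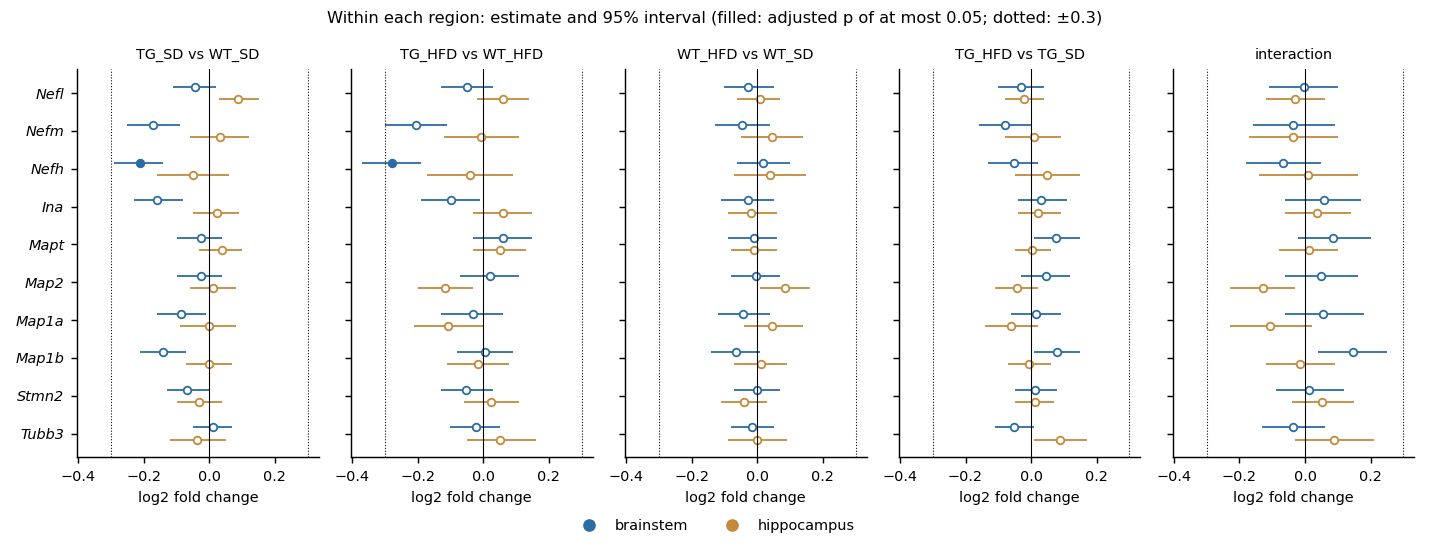
Log2 fold change with its 95% interval for each gene in the 4 group comparisons and the interaction, in brainstem (blue) and hippocampus (ochre), filled where the adjusted p is at most 0.05 and with dotted lines at ±0.3. The filled circles are Nefh of brainstem in both genotype comparisons, at −0.21 and −0.28, and no estimate reaches ±0.3.

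The diet comparisons of brainstem gave 0 calls among the 10 genes. With 4 surrogate variables, WT_HFD over WT_SD ranged from −0.06 for Map1b to 0.02 for Nefh, with 0 of the 10 genes at an unadjusted p under 0.05 and 5.4% of all genes. TG_HFD over TG_SD ranged from −0.08 for Nefm to 0.08 for Mapt and Map1b, with 3 of the 10 genes at an unadjusted p under 0.05, beside 7.03% of all genes, and adjusted p values of 0.621 or above. Without surrogate variables Map1b had −0.22 ± 0.133 in WT (adjusted p of 0.721) and 0.33 ± 0.127 in TG (adjusted p of 0.756). The value in TG was past the fold threshold but not the adjusted p. Nefm in TG then had the other sign, at 0.11 ± 0.118 (adjusted p of 0.825). A diet change of 0.3 is thus not excluded for Map1b in that fit. The interaction had 1 of the 10 genes at an unadjusted p under 0.05, Map1b, beside 4.79% of all genes. It was farthest from 0 for Map1b, at 0.14 ± 0.0521 (unadjusted p of 0.00958, adjusted p of 0.984), and at 0.55 ± 0.184 (adjusted p of 0.612) without surrogate variables. Map1b had 1290, 1140, 775, 1210 and 1200 CPM in WT_SD, 702 to 1180 in WT_HFD, 750 to 1080 in TG_SD and 938 to 1420 in TG_HFD, and all 4 groups overlapped. Calls over all genes were 0.015% for the diet comparison of WT, 0.0075% for that of TG and 0.0075% for the interaction.

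In hippocampus, too, 0 of the 10 genes were called in any comparison of groups, at 0.0904% of all genes for TG_SD over WT_SD, 0.309% for TG_HFD over WT_HFD, 0.0377% for the diet comparison of WT and 0% for the diet comparison of TG and the interaction. Nefl was the gene with the clearest separation: it had 333 to 352 CPM (median 347) in WT_SD and 357 to 379 CPM (median 365) in TG_SD, and the groups did not overlap. Every TG_SD library exceeded every WT_SD library in 0.161% of the genes compared. The log2 fold change was nonetheless small, 0.09 ± 0.0305 (95% interval 0.03 to 0.15), and its adjusted p was 0.313. On HFD, Nefl had 315 to 360 CPM (median 346) in WT and 335 to 385 CPM (median 361) in TG, with 0.06 ± 0.038 and an adjusted p of 0.559. On HFD, 2 alternative settings without surrogate variables put Nefl under 0.05, DESeq2 (0.10, adjusted p of 0.0326) and the length correction (0.12, adjusted p of 0.0457).

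The heavy and medium chains of hippocampus did not pass the test. Nefh had 33.7 to 45.2 CPM (median 40.8) in WT_SD and 33 to 40.5 CPM (median 38.1) in TG_SD, a log2 fold change of −0.05 ± 0.0524 (95% interval −0.16 to 0.06, adjusted p of 0.817). On HFD it had 40.3 to 45.1 CPM (median 43.8) in WT and 35.2 to 40.8 CPM (median 38.9) in TG, and −0.04 ± 0.0646 (95% interval −0.17 to 0.09, adjusted p of 0.855). On HFD the CPM of the groups met only at their edges, while the fit with 4 surrogate variables gave a value near 0. Over 16 alternative settings it ran from −0.17 to 0.03. Without surrogate variables it was −0.17 ± 0.0583 (adjusted p of 0.0822), and 2 settings passed, 1 surrogate variable (−0.17, adjusted p of 0.0497) and a fit of only the 2 groups (−0.17, adjusted p of 0.0472). The GC correction without surrogate variables gave 0.03 ± 0.0572 (adjusted p of 0.892), the 1 setting of the other sign. The median GC slope, described with the library measures further on, was 0.118 in WT_HFD and −0.056 in TG_HFD of hippocampus. Nefm had 0.03 ± 0.0458 and −0.01 ± 0.0565, and Ina 0.02 ± 0.0348 and 0.06 ± 0.0431 on SD and HFD.

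Among the microtubule genes of hippocampus, Map2 had the values farthest from 0. It had 1090 to 1270 CPM in WT_SD, 1070 to 1290 in WT_HFD, 1130 to 1340 in TG_SD and 1130 to 1330 in TG_HFD, and all groups overlapped. TG_HFD over WT_HFD was −0.12 ± 0.0415 (adjusted p of 0.215), WT_HFD over WT_SD 0.09 ± 0.0356 (adjusted p of 0.66), and the interaction −0.13 ± 0.0482 (adjusted p of 0.618). These 3 values share the WT_HFD libraries. Without surrogate variables they were 0.04 ± 0.0542, −0.02 ± 0.0542 and 0 ± 0.0766 in that order. The genotype value and the diet value each had the other sign in 7 of 16 alternative settings, and the interaction in 4 of 15. With 4 surrogate variables, Map1a had −0.11 ± 0.0516 (adjusted p of 0.393) for TG_HFD over WT_HFD, and Tubb3 0.09 ± 0.0374 (adjusted p of 0.563) for TG_HFD over TG_SD. At an unadjusted p under 0.05 there were 1, 2, 1, 1 and 1 of the 10 genes in the genotype comparisons on SD and HFD, the diet comparisons of WT and TG, and the interaction. Of all genes tested these were 9.59%, 12.1%, 6.78%, 7.27% and 6.37%, so the counts of members were near the background. DESeq2 with the same surrogate variables also called 0 of the 10 genes in each comparison of both regions.

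Whether the genotype effect differed between the regions was asked in 1 model over all 47 libraries, a comparison added after seeing the data. This model, too, had no term for mice that gave both regions. None of the 10 genes was called, with 0.0223% of all genes called and 0 of the 10 at an unadjusted p under 0.05, where 4.08% of all genes were. The difference for Nefh, brainstem minus hippocampus, was −0.08 ± 0.0856 (adjusted p of 1) and with 6 surrogate variables −0.08 ± 0.0631 (adjusted p of 0.776). The genotype effect on Nefh was thus not shown to differ between the regions.

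Ratios to Nefl, which cancel what the subunit genes share equally in a library but not its GC slope, are given as a description. The transcript of Nefl holds 48.8% GC, and those of Nefh, Nefm and Ina 58.4%, 57.8% and 55.5%. The ratio of Nefh to Nefl was 0.636 ± 0.0922 in WT_SD and 0.528 ± 0.0581 in TG_SD of brainstem, and 0.65 ± 0.0576 in WT_HFD and 0.575 ± 0.0536 in TG_HFD. In hippocampus it was 0.116 ± 0.00915 and 0.102 ± 0.00709 on SD, and 0.127 ± 0.01 and 0.106 ± 0.00683 on HFD. The mean of Nefh to Nefl was lower in TG in all 4 comparisons, and so were those of Nefm to Nefl and Ina to Nefl, which share the denominator. The TG mean divided by the WT mean was 0.847 to 0.968 for Nefm and 0.87 to 0.979 for Ina. For Nefh to Nefl in hippocampus on HFD the groups did not overlap, with 0.117 to 0.14 in WT and 0.095 to 0.114 in TG, the only such case among 20 comparisons of 5 ratios. The median GC slope was also lower in TG in all 4 comparisons, with 0.118 in WT_HFD and −0.056 in TG_HFD of hippocampus. The part of the GC slope in these ratios was not tested.

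Of the genes on all lists, cytoskeletal and marker genes alike, the only one called in any of the 10 group comparisons within regions was the endothelial gene Cldn5, at 0.39 (adjusted p of 0.0319) for TG_SD over WT_SD in brainstem. For TG_SD over WT_SD in brainstem the median log2 fold change was −0.16 over the 4 neurofilament subunit genes, −0.06 over the 4 microtubule-associated protein genes, −0.05 over 12 tubulins, −0.05 over 18 motor genes and 0.002 over all genes. On HFD these were −0.15, 0.01, −0.03, −0.02 and 0.005. The 10 pan-neuronal markers had a median of −0.06 on SD and 0.01 on HFD. Marker lists of other kinds had medians about as far from 0 as the neurofilament genes. Astrocyte markers had a median of 0.14 on SD, with 6 of 7 above 0, and 0.08 on HFD, and their summed level was 2890 to 3250 CPM in WT_SD and 2910 to 3590 in TG_SD. Hindbrain position markers had −0.11 on SD and 0.21 on HFD, with 5 of the 5 tested above 0 on HFD, and summed to 45.9 to 70.7 CPM in WT_HFD and 42.3 to 113 in TG_HFD. Microglia markers had 0.03 and 0.11, with 6 of 6 above 0 on HFD. Choroid plexus markers had −0.19 and −0.05 over the 3 tested in the fit with surrogate variables. The summed level of all 6 spread widely within groups. On SD it was 22.5 to 1580 CPM (median 52.2) in WT and 18.1 to 2960 (median 869) in TG. On HFD it was 31.4 to 2890 CPM (median 477) in WT and 12.4 to 2440 (median 152) in TG. The motor neuron markers had a median of −0.08 on SD and −0.23 on HFD over the 5 tested, and their summed levels were 131 to 203 CPM in WT_SD, 146 to 195 in WT_HFD, 147 to 198 in TG_SD and 157 to 195 in TG_HFD. The part of these marker lists in the values of Nefh was not tested.

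Between libraries of 1 group, Nefm and Nefh moved together closely in brainstem. Deviations of log2 CPM from the group mean had a Pearson r of 0.97 and a Spearman rho of 0.96 over 23 libraries, each with a permutation p of 1e-05, the smallest that 100000 permutations can give, and 6e-05 after adjustment over 6 relations. Without the 2 libraries farthest from the median, r was 0.96, and on residuals after the surrogate variables it was 0.63. Nefl followed less closely, with r = 0.53 and rho = 0.58 to Nefm (permutation p of 0.011 and 0.00782, adjusted 0.033 and 0.0184) and r = 0.48 and rho = 0.56 to Nefh (permutation p of 0.0244 and 0.00921, adjusted 0.0489 and 0.0184). Without the 2 farthest libraries these r were 0.52 and 0.47. On residuals after the surrogate variables they were 0.82 and 0.76, above the 0.63 of Nefm and Nefh, so the order of the pairs held only before them. Nefl varied less than the other two, with an SD of 0.074 on the log2 scale against 0.214 for Nefm and 0.175 for Nefh, where the median gene had 0.15.

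In hippocampus none of the 3 pairs of chains passed the test. Nefm and Nefh had r = 0.41 and rho = 0.13 over 24 libraries (permutation p of 0.0729 and 0.566, adjusted 0.109 and 0.679), and r fell to −0.02 without the 2 farthest libraries. Nefl and Nefm had r = 0.35 and rho = 0.2 (permutation p of 0.143 and 0.397, adjusted 0.172 and 0.596; 0.05 without 2 libraries), and Nefl and Nefh r = 0.1 and rho = 0.06 (permutation p of 0.593 and 0.795, adjusted 0.593 and 0.795; 0.02 without 2). For Nefl and Nefm r was larger on residuals after the surrogate variables, at 0.59, and on raw totals without TMM, at 0.6, and no p was computed for these. Nefl and Nefm lie on opposite strands with 1108 bases of exon in common, and no counting by strand is stated, so reads there may be shared between these genes. Nefh shares exon bases with no other gene.

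**Figure D5:**
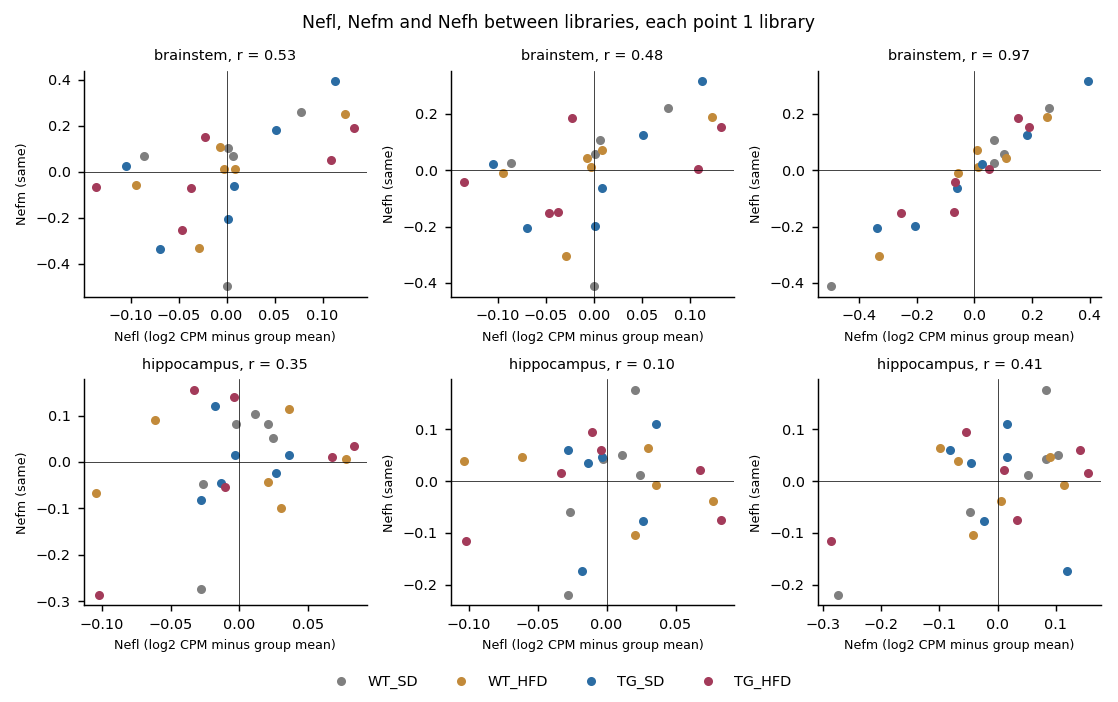
Deviation of each library from its group mean (log2 CPM) for the pairs of Nefl, Nefm and Nefh in brainstem (top) and hippocampus (bottom), each point a library coloured by group. Nefm and Nefh of brainstem lie along a line (r = 0.97), and the hippocampal panels are scattered, with 2 low libraries at the left of the Nefm and Nefh panel.

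Several of the 10 genes moved between libraries of a group with measures of the library itself. Relations were computed for each gene with the slope of a library's log2 deviations on GC content, the slope on transcript length, and summed marker levels, 100 relations in all, of which 10 had an adjusted p of at most 0.05 for both r and rho. Tubb3 moved closely with the GC slope in brainstem, with r = 0.97 and rho = 0.93 over 23 libraries (permutation p of 1e-05 each, adjusted 0.000333 and 5e-04; r = 0.95 without the 2 farthest libraries), and with r = 0.75 and rho = 0.76 over 24 in hippocampus (permutation p of 0.00015 and 0.00024, adjusted 0.003 and 0.0048; 0.66 without 2). Map2 went the other way in brainstem, with r = −0.76 and rho = −0.8 (permutation p of 1e-05 and 4e-05, adjusted 0.000333 and 0.00133; −0.66 without 2). The transcript of Tubb3 holds 57.9% GC and that of Map2 47.8%.

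Map1b and Mapt moved with the length slope in both regions. For Map1b, r was 0.86 and rho 0.87 in brainstem (permutation p of 1e-05 each, adjusted 0.000333 and 5e-04; 0.84 without 2 libraries) and 0.79 and 0.72 in hippocampus (permutation p of 0.00011 and 0.00051, adjusted 0.00275 and 0.00637; 0.74 without 2). For Mapt, r was 0.68 and rho 0.64 in brainstem (permutation p of 0.00057 and 0.00158, adjusted 0.00633 and 0.0158; 0.66 without 2) and 0.67 and 0.68 in hippocampus (permutation p of 0.00018 and 0.00044, adjusted 0.003 and 0.00629; 0.67 without 2). Nefm and Nefh of brainstem had r = 0.69 and 0.66 with the motor neuron markers. These had adjusted p of 0.0341 and 0.0434 for r, but 0.0626 and 0.0536 for rho (0.58 and 0.59), from permutation p of 0.00478 and 0.0072 for r and 0.0106 and 0.00857 for rho, and r without the 2 farthest libraries was 0.53 and 0.5. With the surrogate variables of the group tests removed from the gene alone, these r were 0.09 for Nefm and −0.04 for Nefh. The r of Tubb3, Map2, Map1b and Mapt with the GC and length slopes given above then lay between −0.02 and 0.05. An r near 0 is built in where the surrogate variables carry a library measure. These values therefore cannot show whether the group tests are free of it.

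The motor neuron markers moved with microtubule genes of brainstem too, before the surrogate variables were removed. Mapt had r = 0.77 and rho = 0.77 with them (permutation p of 0.00022 and 0.00011, adjusted 0.00314 and 0.00275; 0.7 without 2 libraries), and Map1b 0.77 and 0.71 (permutation p of 0.00044 and 0.00075, adjusted 0.0055 and 0.00833; 0.67 without 2). Map1b went against the oligodendrocyte markers, with r = −0.65 and rho = −0.7 (permutation p of 0.00089 and 0.00041, adjusted 0.0089 and 0.00629; −0.59 without 2). With the surrogate variables removed from the gene alone, r with the motor neuron markers was 0.21 for Mapt and 0 for Map1b, and r of Map1b with the oligodendrocyte markers was −0.18. WT_SD replicate 6 of brainstem, low in Nefm, Nefh, Ina, Map1a, Map1b and Tubb3, had the lowest motor neuron marker level of all brainstem libraries, at 131 CPM, and a GC slope of −0.163. The GC slope differed between groups, with medians of 0.05 in WT_SD, 0.132 in WT_HFD, −0.057 in TG_SD and −0.02 in TG_HFD of brainstem, and the GC correction given above moved the value of Nefh on HFD across 0. Without WT_SD replicate 6, the fit for Nefh gave −0.22 (adjusted p of 0.018) on SD and −0.26 (adjusted p of 0.00848) on HFD.

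The genes that moved most like the 3 chains between libraries of a group were named by the smaller of 2 values, their r with the mean standardized deviation of Nefl, Nefm and Nefh in each region. They were Magee1 (r of 0.74 over 23 brainstem and 0.78 over 24 hippocampal libraries), Gm12346 (0.77 and 0.74), Syn1 (0.74 and 0.76), Ndrg4 (0.73 and 0.76) and Hsph1 (0.82 and 0.72). Syn1 encodes a synaptic vesicle protein of neurons and Hsph1 a heat shock protein. These values are a description: all genes of a library share its depth and its GC and length slopes. After the surrogate variables, r ran from 0.22 (Syn1) to 0.52 (Magee1) in brainstem and from 0.55 (Magee1) to 0.8 (Gm12346 and Hsph1) in hippocampus. In hippocampus the 3 chains themselves did not pass the test of moving together, as given above.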

How the data were processed

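Gene expression was measured by RNA-seq of poly(A)-selected, single-end libraries. Per the submitters' processing notes and the study's methods, the authors aligned reads with STAR 2.7.9a to the Ensembl mouse genome, release 104, and deposited raw counts per gene and library. The counting tool is not given in the sources used here. No library or column was left out; some items are not reported here. Gene symbols, lengths and GC content came from GENCODE vM21 (GRCm38), another build, so no gene coordinates are given beyond RefSeq promoters.

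Genes averaging 50 reads or more were tested in R 4.3.3 with edgeR 4.0.16 (TMM, quasi-likelihood test) on the 4 groups of a region with 4 surrogate variables (sva 3.50.0), 13340 genes in brainstem and 13272 in hippocampus, or on 8 groups over both regions without them (13458 genes with a row for each region). P-values were adjusted by Benjamini-Hochberg over all tested genes. A call needed a log2 fold change of 0.3 or more in size and an adjusted p no higher than 0.05. CPM used TMM over all 47 libraries, and log2 CPM a prior count of 2. Correlations used deviations from group means, permuted within groups 100000 times, two-sided. Code was tested on simulated counts. P-values of the group tests within a region measure the spread between mice that is left after the surrogate variables. Those between the regions treat the 47 libraries as independent. Genes named were the 10 members, the called genes of largest change in other lists, and the 5 genes most like the neurofilament chains. Alternatives were other numbers of surrogate variables, DESeq2 1.42.0, RLE or upper quartile normalization, other filters, GC or length corrections, a replicate block, 2-group fits and leaving out each library. The members and lists were chosen with earlier results of these data known.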

Additional observations from a re-analysis of the deposited data

Results flagged for a closer look

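In brainstem, 2 libraries of WT_SD stood apart from the others of their group for 1 gene each, with a gap above Dixon's critical value for 5 libraries. Map1a had 823 CPM in WT_SD replicate 6, where the other 4 libraries had 1140 to 1210 CPM, and the gap was 0.809 of the whole range. Stmn2 had 424 CPM in WT_SD replicate 1, where the others had 468 to 482 CPM, and the gap was 0.762 of the range. Among 80 groups examined, chance gives such a gap in about 1 of 20.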

How the results depend on the processing

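The count of called members stayed within 1.5 times of the reported one in 180 pairs of a comparison and another setting, and moved in 3. With 1 library left out, it stayed in 327 such pairs and moved in 2. The reported count was 0 in all but the comparison between the regions, so elsewhere it could only rise. Single members with a reported adjusted p of at most 0.05 kept it in 91 pairs, lost it in 19 and changed sign in 2. With 1 library left out, within brainstem, they kept it in 44 and lost it in 2. Without a fold threshold, 1 member, Nefh, passed in brainstem for TG_SD over WT_SD (30 genes in all) and 1 for TG_HFD over WT_HFD (11 genes). With the replicate block and surrogate variables, 1 member was called for TG_HFD over WT_HFD (4 genes in all, Nefh at −0.31, adjusted p of 0.0172). The labels do not say whether the replicate numbers of the titles pair the samples. Same-numbered libraries correlated from −0.314 to 0.404 over 17 pairs in brainstem, with 6 above 0.1. In hippocampus they correlated from −0.094 to 0.381 over 24 pairs, with 11 above 0.1. These values do not settle whether samples were paired. Per the study's methods, mice were allotted to the diets at random within litters. The labels used here name no litter, so the fits had no term for it. The block without surrogate variables gave Nefh of brainstem −0.23 (adjusted p of 0.962) on SD and −0.12 (0.504) on HFD. Leaving out 1 library at a time gave 0 to 1 called members for TG_HFD over WT_HFD in brainstem, 0 to 0 in the other 9 comparisons within regions and in the region difference of the genotype effect, and 7 to 7 between the regions. The log2 fold change of Nefh for TG_HFD over WT_HFD was 0.05 with the GC correction, and that of Map1a between the regions −0.06 with the length correction; the cause was not tested. On residuals after the surrogate variables, r in brainstem was 0.82 for Nefl and Nefm, 0.76 for Nefl and Nefh and 0.63 for Nefm and Nefh, and in hippocampus 0.59 for Nefl and Nefm and 0.06 for Nefm and Nefh; on raw totals, Nefl and Nefm of hippocampus had 0.6. The settings with 3 surrogate variables, without the 2 libraries of highest choroid plexus level, and the region difference of the genotype effect were chosen after seeing the data. The number of mice limits all group comparisons; depth limits Nefh of hippocampus most, at 454 reads in its lowest library.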
